A study of Rattus norvegicus with 4 samples.

Results

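The genes described here encode the enzymes that make and salvage nucleotides and the enzymes of the pentose phosphate pathway, as a fixed list of 37 symbols. A member was any row of the deposited table whose Ensembl symbol is on the list. This gave 35 genes of 16290, in 6 groups: 8 deoxynucleotide enzymes, 5 of pyrimidine synthesis, 10 of purine synthesis, 3 of activated ribose supply and purine salvage, 4 nucleotide kinases and 5 of the pentose phosphate pathway. Hprt1 and Pgd are on the list and were not analysed here.

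RNA was sequenced from cultured rat heart muscle cells of postnatal day 3 that carried an adenovirus vector, a viral gene carrier, encoding either Pdk3 (2 libraries, Pdk3 1 and Pdk3 2) or mock (2 libraries, Mock 1 and Mock 2). The labels describe culture in serum-containing medium with pyruvate. Pdk3 is a kinase that inhibits the pyruvate dehydrogenase complex, and by its title the series asks how glycolysis bears on the proliferation of heart muscle cells. The labels give neither the rat strain nor the promoter in the vector. Nor do they state if the 2 libraries of a group stem from different cultures, so each p-value reflects library-to-library spread that could be purely technical.

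As background, a dividing cell has to supply deoxynucleotides for DNA synthesis. Ribonucleotide reductase makes them from ribonucleotides, and thymidylate synthase and the salvage kinases complete the set. Purines and pyrimidines are built on activated ribose (phosphoribosyl pyrophosphate), and the pentose phosphate pathway branches from glycolysis to provide that ribose together with NADPH. Several, but not all, genes of deoxynucleotide synthesis are known to peak in S phase, so the group as a whole is not a measure of S phase. Purine, pyrimidine and pentose phosphate enzymes are in general expressed through the cell cycle. The rat heart cell loses most of its capacity to divide soon after birth.

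Of the 35 enzymes, 15 had higher and 2 had lower values with Pdk3, and 18 did not pass the test (limma, Benjamini-Hochberg adjusted p under 0.05). Over all 12838 genes tested 22.9% passed, 11.7% as higher and 11.3% as lower. Among deoxynucleotide enzymes 6 of 8 rose and 0 fell, in pyrimidine synthesis 3 of 5 rose and 1 fell, and in purine synthesis 4 of 10 rose and 1 fell. Of activated ribose supply and purine salvage 2 of 3 rose, and 0 of 4 nucleotide kinases and 0 of 5 pentose phosphate enzymes passed in either direction. At an unadjusted p under 0.05 23 of the 35 enzymes would have passed in either direction, against 4671 of the 12838 genes tested.

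By group, the median log2 fold change was 0.40 for deoxynucleotide enzymes, 0.21 for pyrimidine synthesis, 0.11 for purine synthesis, 0.15 for activated ribose and salvage, 0.11 for nucleotide kinases and 0.07 for the pentose phosphate enzymes, against -0.01 for all genes tested. In 25 of the 35 enzymes both Pdk3 values lay above both Mock values, and in 4 (Cad, Ctps2, Impdh1 and Pgls) both lay below. Over all genes tested these arrangements were found in 29.9% and 31.1%.

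The replicate libraries of a group differed by less than counting noise. On values multiplied back to reads, chi-square per degree of freedom over all genes tested was 0.606 within the Pdk3 pair and 0.601 within the Mock pair, and it was 0.549 and 0.457 over the 35 enzymes. A second, more cautious p was therefore used, in which limma's p could not be smaller than that of an exact binomial test on the reads summed per group (called floored at counting noise from here on). By that p 9 enzymes were higher and 1 was lower. Of all genes tested 15.8% passed, 8.38% as higher and 7.44% as lower. The 9 were Rrm1, Rrm2, Tk1, Tyms, Dck, Dhodh, Umps, Ctps1 and Ppat, and the 1 was Ctps2. Only p-values were floored, so the SEs and intervals given here can be narrower than counting noise allows, most of all for genes of high counts such as Rrm1. If fold changes of genes at high and low counts can be compared in size was not tested. Levels are authors' normalised counts, not scaled for gene length, so they are compared between libraries and not between genes.

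**Figure D1:**
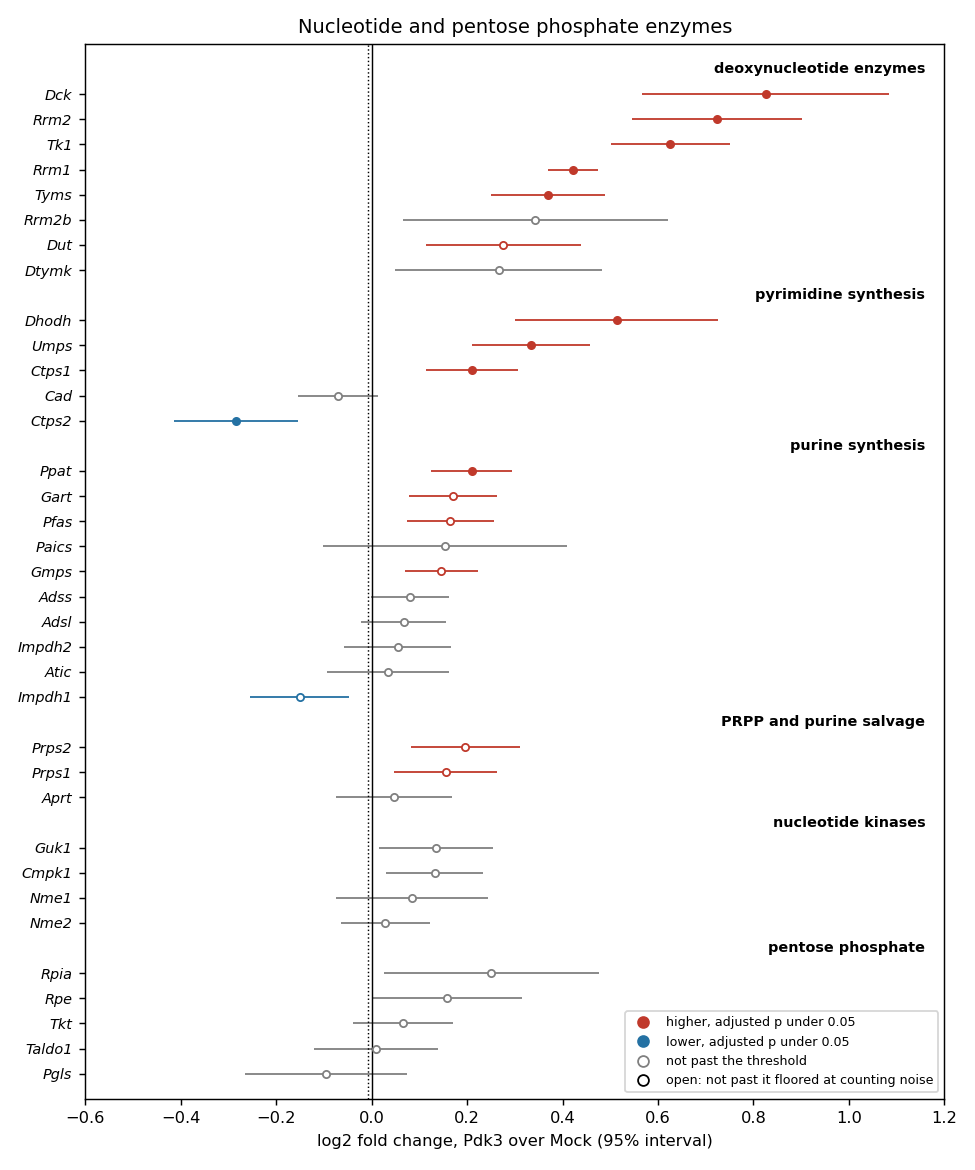
Log2 fold change of Pdk3 over Mock with its 95% interval (x axis, limma) for the 35 enzymes, by group and sorted within each group; filled points also passed floored at counting noise, and the dotted line is the median of all genes tested (-0.01). The 8 deoxynucleotide enzymes lie between 0.27 and 0.83, and the 5 pentose phosphate enzymes between -0.10 and 0.25. Intervals are not floored at counting noise.

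Every one of the 8 deoxynucleotide enzymes had both Pdk3 values above both Mock values. This arrangement was found in 29.9% of all genes tested and in all 29 genes of the DNA replication machinery that are described below. Dck, the kinase that salvages deoxycytidine, had 116 and 112 normalised counts in the Pdk3 libraries and 60 and 68 in the Mock libraries, and its fold change was the highest of the 35 enzymes. Its mean was 114.0 ± 2.83 with Pdk3 and 64.0 ± 5.66 with mock (SD, n = 2 each), 1.78-fold higher, with a log2 fold change of 0.83 ± 0.11 (limma SE, adjusted p = 0.00205). These are among the lowest counts of the list, so the interval of the change is wide, from 0.57 to 1.08.

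Ribonucleotide reductase joins a large subunit, Rrm1, with a small subunit, Rrm2 in dividing cells or Rrm2b, which serves DNA repair and the mitochondrial supply. Rrm2 had 207 and 202 in the Pdk3 libraries and 129 and 118 in the Mock libraries, which is 0.72 ± 0.08 higher on the log2 scale (limma adjusted p = 0.000644). Rrm1 had 1295 and 1307 in the Pdk3 libraries and 967 and 974 in the Mock libraries, a smaller rise of 0.42 ± 0.02 with the narrowest interval of the group, 0.37 to 0.48 (adjusted p = 3.30e-05). Rrm2b had 99 and 88 in the Pdk3 libraries against 78 and 69 in the Mock libraries. Its log2 fold change of 0.34 ± 0.12 did not pass (adjusted p = 0.0782, and 0.121 floored at counting noise), with a 95% interval of 0.06 to 0.62.

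Of the 4 enzymes of thymidylate 3 rose, and 2 of these also floored at counting noise. Tk1, the cytosolic thymidine kinase, had 330 and 352 in the Pdk3 libraries and 222 and 219 in the Mock libraries, a 1.55-fold rise (log2 fold change 0.63 ± 0.05, limma adjusted p = 0.000261). Tyms, thymidylate synthase, had 316 and 306 in the Pdk3 libraries and 245 and 236 in the Mock libraries, a 1.29-fold rise (0.37 ± 0.05, adjusted p = 0.00243). Dut, which removes dUTP and yields the substrate of thymidylate synthase, had 198 and 191 in the Pdk3 libraries and 155 and 166 in the Mock libraries. Its log2 fold change of 0.28 ± 0.07 passed (adjusted p = 0.0274), and the call ended floored at counting noise (0.0648). Dtymk, which phosphorylates thymidylate, had 201 and 177 in the Pdk3 libraries and 147 and 167 in the Mock libraries. In Dtymk the lower Pdk3 value was close to the higher Mock value, and its log2 fold change of 0.27 ± 0.09 did not pass (adjusted p = 0.0789).

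**Figure D2:**
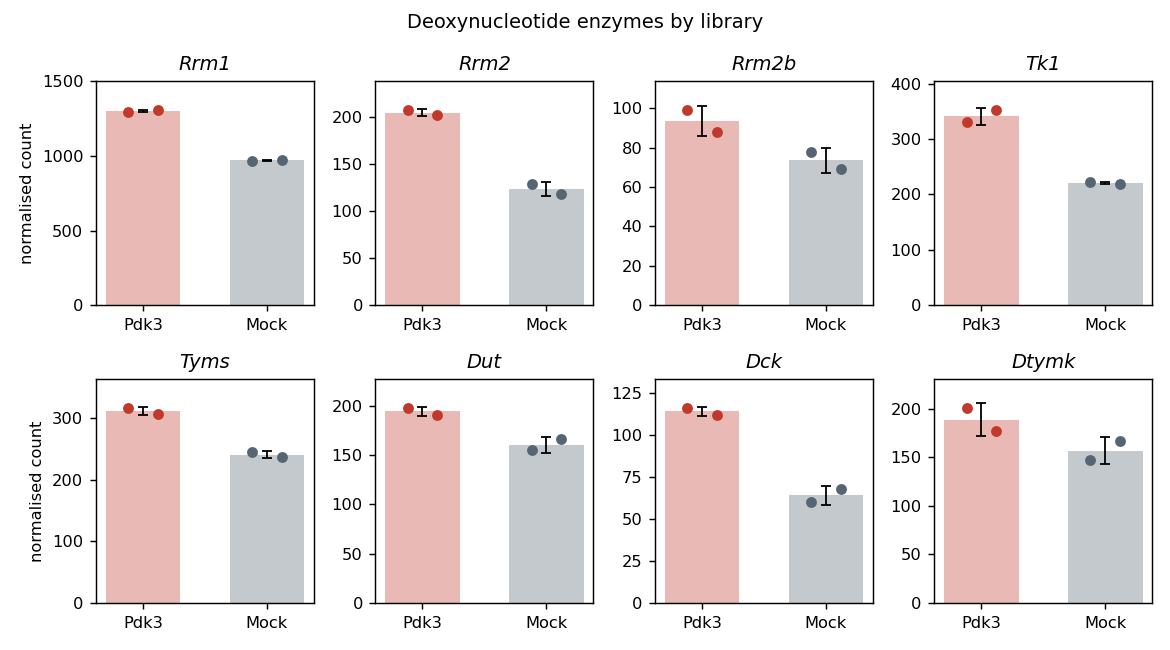
Normalised count (y axis, from 0, own scale per gene) of the 8 deoxynucleotide enzymes in each library; points are libraries, bars are means and error bars SDs over n = 2. In each panel both Pdk3 points lie above both Mock points (as in 29.9% of all genes tested), with the smallest gap in Dtymk (177 against 167).

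Promoters are shown for Tyms, Rrm1, Tk1 and Dck, deoxynucleotide enzymes that passed also floored at counting noise, because these genes rose together. Rrm2, which passed as well, had no window in the promoter set used here and is named only. The sequences are the 250 bases before the start site in RefSeq, on build GRCr8 of the rat genome, while the deposited table uses rn6. Capitals mark the motifs searched on both strands: the E2F motif in 4 forms (TTTCGCGC, TTTGGCGC, TTTCCCGC and TTTGCCGC), the CCAAT box (CCAAT) and the E-box (CACGTG). In these windows no match overlapped another. The windows are chr9:120776084-120776333 (minus strand) for Tyms, chr1:166235654-166235903 (plus strand) for Rrm1, chr10:103544778-103545027 (minus strand) for Tk1 and chr14:19610327-19610576 (minus strand) for Dck, each written 5′ to 3′ along the gene.
Tyms: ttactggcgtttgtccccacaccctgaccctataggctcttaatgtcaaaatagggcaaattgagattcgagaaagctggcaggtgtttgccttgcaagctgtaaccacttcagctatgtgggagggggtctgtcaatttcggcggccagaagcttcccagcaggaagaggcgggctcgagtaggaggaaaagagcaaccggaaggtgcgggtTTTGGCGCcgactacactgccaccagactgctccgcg
Rrm1: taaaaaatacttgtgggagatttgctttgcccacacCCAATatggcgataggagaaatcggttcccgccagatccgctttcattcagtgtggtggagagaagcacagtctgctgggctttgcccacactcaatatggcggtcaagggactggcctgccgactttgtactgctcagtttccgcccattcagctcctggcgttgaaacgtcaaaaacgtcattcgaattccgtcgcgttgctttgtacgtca
Tk1: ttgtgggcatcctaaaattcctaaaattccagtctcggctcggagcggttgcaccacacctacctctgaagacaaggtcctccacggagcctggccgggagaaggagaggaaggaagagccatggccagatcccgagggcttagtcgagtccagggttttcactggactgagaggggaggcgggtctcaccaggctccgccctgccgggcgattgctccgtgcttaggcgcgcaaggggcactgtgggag
Dck: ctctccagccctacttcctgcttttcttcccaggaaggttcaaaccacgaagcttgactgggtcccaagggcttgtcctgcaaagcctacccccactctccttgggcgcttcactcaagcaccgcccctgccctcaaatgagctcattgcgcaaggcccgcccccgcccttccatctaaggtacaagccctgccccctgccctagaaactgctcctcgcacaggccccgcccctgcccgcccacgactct

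The Tyms window held the E2F motif TTTGGCGC, its first base 37 bases before the start, and the Rrm1 window held a CCAAT box with its first base 214 before the start. The Tk1 and Dck windows held none of the 3 motifs, which says only that these letters are not in these windows. By symbol 31 of the 37 listed genes had a window, and Rrm2, Rrm2b, Dhodh, Umps, Adss and Pgls had none. Among these 31 genes the E2F motif was found in 2 (Tyms and Ppat), the CCAAT box in 9 and the E-box in 2 (Dtymk and Atic). Over 21851 windows of protein-coding genes, counted by window and not by gene, the 3 motifs were found in 2.22%, 35% and 6.16%. Among 26 DNA replication genes with a window the E2F motif was found in 7, the CCAAT box in 15 and the E-box in 4.

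In pyrimidine synthesis Dhodh, Umps and Ctps1 rose, Ctps2 fell and Cad did not pass. Dhodh, the mitochondrial enzyme whose reaction feeds electrons to the respiratory chain, had 152 and 140 in the Pdk3 libraries and 106 and 98 in the Mock libraries. The rise was 1.43-fold (log2 fold change 0.51 ± 0.09, limma adjusted p = 0.00671). Umps, which makes UMP in the last steps, had 402 and 430 in the Pdk3 libraries and 319 and 341 in the Mock libraries (0.33 ± 0.05, adjusted p = 0.00430). Cad, the large enzyme of the opening steps, had 559 and 583 in the Pdk3 libraries and 590 and 609 in the Mock libraries. Both Pdk3 values of Cad lay below both Mock values, and its log2 fold change of -0.07 ± 0.04 did not pass (adjusted p = 0.208), with a 95% interval of -0.16 to 0.01.

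The paralogues that convert UTP to CTP moved in opposite directions. Ctps1, the form known to be needed by dividing human lymphocytes, had 977 and 916 in the Pdk3 libraries and 843 and 793 in the Mock libraries, a rise of 0.21 ± 0.04 on the log2 scale (limma adjusted p = 0.0105). Ctps2 had 278 and 259 in the Pdk3 libraries and 319 and 335 in the Mock libraries, a 1.22-fold lower mean (-0.28 ± 0.06, adjusted p = 0.0104). The log2 ratio of Ctps1 to Ctps2 values was 1.81 and 1.82 in the Pdk3 libraries and 1.40 and 1.24 in the Mock libraries. The mean ratio was 0.49 higher on the log2 scale with Pdk3, and an exact two-sided permutation test over the 4 libraries gave p = 0.333, the smallest it can give with 2 against 2.

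In purine synthesis the 4 enzymes that rose did so by 0.15 to 0.21 on the log2 scale. Ppat, which opens the pathway, had 761 and 809 in the Pdk3 libraries and 687 and 670 in the Mock libraries (log2 fold change 0.21 ± 0.04, limma adjusted p = 0.00638). Gart, which catalyses 3 steps of the pathway, had 453 and 440 in the Pdk3 libraries and 391 and 402 in the Mock libraries (0.17 ± 0.04, adjusted p = 0.0203). Pfas, which acts between steps of Gart, had 503 and 528 in the Pdk3 libraries and 455 and 464 in the Mock libraries (0.17 ± 0.04, adjusted p = 0.0215). Floored at counting noise Ppat still passed (0.00687), while Gart and Pfas did not (0.0837 and 0.0686).

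The enzymes of the later steps to IMP did not pass. Paics had 108 and 95 in the Pdk3 libraries and 87 and 95 in the Mock libraries, with 1 value shared between the groups and an interval of -0.10 to 0.41. Adsl, which acts here and in AMP synthesis, stood 0.07 ± 0.04 higher on the log2 scale (limma adjusted p = 0.247). Atic, which closes the ring, had 460 and 424 in the Pdk3 libraries and 415 and 448 in the Mock libraries, so the groups overlapped (0.03 ± 0.05, adjusted p = 0.691).

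Ppat and Paics lie head to head on chromosome 14 (rn6), Paics at 33563886 to 33580566 on the minus strand and Ppat at 33580541 to 33614919 on the plus strand, so that they share 26 bases at their starts. The strand setting of the counting is not given in the sources used here, and reads in such an overlap cannot be assigned with certainty. The log2 ratio of Ppat to Paics values was 2.81 and 3.08 in the Pdk3 libraries and 2.97 and 2.81 in the Mock libraries, overlapping between the groups.

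On the branch to GMP, Gmps, its last enzyme, had 582 and 571 in the Pdk3 libraries and 524 and 518 in the Mock libraries (log2 fold change 0.15 ± 0.03, limma adjusted p = 0.0181, and 0.0904 floored at counting noise). Impdh1, one form of the rate-limiting enzyme of the branch, had 292 and 296 in the Pdk3 libraries and 325 and 328 in the Mock libraries, lower by a log2 fold change of -0.15 ± 0.04 (adjusted p = 0.0480). That call ended floored at counting noise (0.229). The other form, Impdh2, known as the form of proliferating cells, had 449 and 457 in the Pdk3 libraries and 418 and 455 in the Mock libraries (0.05 ± 0.05, adjusted p = 0.457). Adss, of the branch to AMP, stood 0.08 ± 0.04 higher on the log2 scale and did not pass (adjusted p = 0.142).

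Both phosphoribosyl pyrophosphate synthetases, which join the pentose phosphate pathway to nucleotide synthesis, were a little higher. Prps2 had 282 and 281 in the Pdk3 libraries and 245 and 246 in the Mock libraries (log2 fold change 0.20 ± 0.05, limma adjusted p = 0.0267). Prps1 had 349 and 365 in the Pdk3 libraries and 324 and 317 in the Mock libraries (0.15 ± 0.05, adjusted p = 0.0477). Floored at counting noise neither passed (0.116 and 0.182). The purine salvage enzyme Aprt had 247 and 252 in the Pdk3 libraries and 242 and 241 in the Mock libraries and did not pass (0.05 ± 0.05, adjusted p = 0.561).

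**Figure D3:**
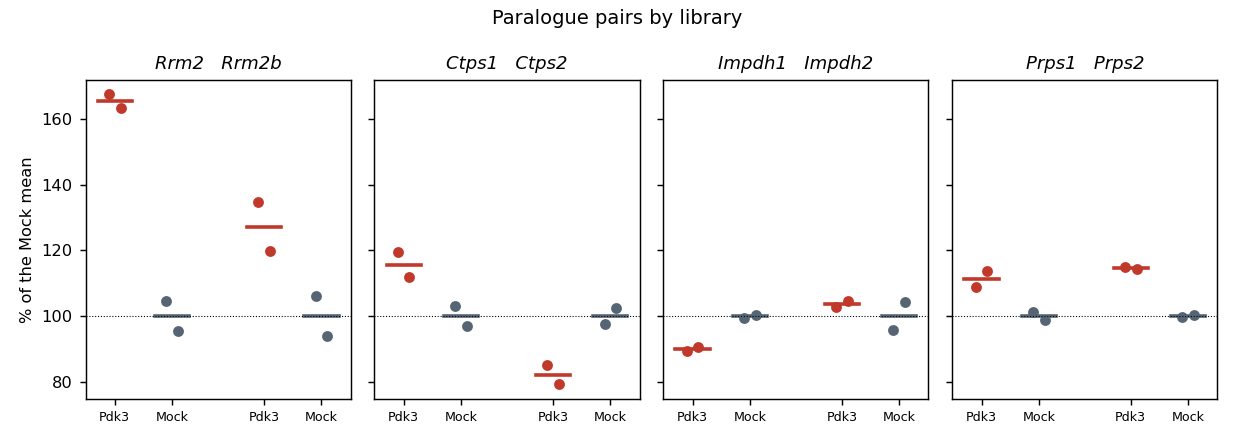
Value of each library as a percentage of the Mock mean of the same gene (y axis) for 4 paralogue pairs; points are libraries and lines are means of n = 2, with Pdk3 in red and Mock in grey. Ctps1 lies above and Ctps2 below the Mock level with Pdk3, Rrm2 lies higher than Rrm2b, and Prps1 and Prps2 are alike in size (log2 fold changes 0.15 and 0.20).

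None of the 4 nucleotide kinases passed. Cmpk1, which phosphorylates CMP and UMP, had 358 and 371 in the Pdk3 libraries and 330 and 335 in the Mock libraries, 0.13 ± 0.04 higher on the log2 scale (limma adjusted p = 0.0677). Guk1, the guanylate kinase, had 401 and 385 in the Pdk3 libraries and 344 and 372 in the Mock libraries (0.135 ± 0.05, adjusted p = 0.101). Nme1 and Nme2, which make nucleoside triphosphates, lie 3435 bases apart on chromosome 10 (rn6) and are close in sequence, so reads between them may be split. Their log2 fold changes were 0.08 ± 0.07 and 0.03 ± 0.04 (adjusted p = 0.422 and 0.648).

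In the pentose phosphate pathway 0 of 5 enzymes passed. Rpia, which makes ribose phosphate, had 101 and 104 in the Pdk3 libraries and 84 and 88 in the Mock libraries. Its log2 fold change of 0.25 ± 0.10 did not pass (limma adjusted p = 0.105), with an interval of 0.03 to 0.48 that reaches a change as large as that of Rrm1. Rpe, the epimerase, had 324 and 303 in the Pdk3 libraries and 265 and 297 in the Mock libraries (0.16 ± 0.07, adjusted p = 0.131).

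Transketolase and transaldolase, which return pentoses to glycolysis, had values that overlapped between the groups. Tkt had 752 and 689 in the Pdk3 libraries and 700 and 675 in the Mock libraries (log2 fold change 0.07 ± 0.04, limma adjusted p = 0.331). Taldo1 had 345 and 376 in the Pdk3 libraries and 348 and 368 in the Mock libraries (0.01 ± 0.06, adjusted p = 0.924, interval -0.12 to 0.14). Pgls, of the oxidative branch, had 155 and 149 in the Pdk3 libraries and 158 and 167 in the Mock libraries (-0.10 ± 0.07, adjusted p = 0.392). Its interval and that of Tkt (-0.04 to 0.17) leave room for changes of over 10% that this depth and 2 libraries a group cannot show.

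Further genes of the same pathways were taken from 5 lists written with the series' earlier results known. Of 58 tested genes 8 (13.8%) were higher and 4 (6.90%) lower, against 11.7% and 11.3% of all genes tested. Floored at counting noise 6 were higher and 3 lower. Among 12 further deoxynucleotide genes 1 rose and 0 fell. Dctd, the deaminase that makes dUMP for thymidylate synthase, had 223 and 205 in the Pdk3 libraries and 121 and 121 in the Mock libraries (log2 fold change 0.82 ± 0.07, limma adjusted p = 0.000332). The median of that list was -0.00, so the 1 gene that rose stood beside 11 that did not pass.

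In the folate cycle 3 of 9 rose and 1 fell. Mthfd2 and Mthfd1l, the mitochondrial enzymes that release formate, had log2 fold changes of 0.93 ± 0.05 and 0.97 ± 0.07 (limma adjusted p = 3.72e-05 and 0.000124). Mthfd1, the cytosolic enzyme that loads formate for purine and thymidylate synthesis, had 466 and 461 in the Pdk3 libraries and 332 and 341 in the Mock libraries (0.46 ± 0.04, adjusted p = 0.000264). Mthfs, a folate salvage enzyme, was lower (-0.25 ± 0.07, adjusted p = 0.0450, and 0.155 floored at counting noise).

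Among 20 further pyrimidine and purine genes 3 rose and 3 fell. The AMP deaminase genes Ampd3 and Ampd2 had 578 and 605 and 340 and 347 in the Pdk3 libraries, against 754 and 735 and 423 and 415 in the Mock libraries. Their log2 fold changes were -0.33 ± 0.03 and -0.29 ± 0.04 (limma adjusted p = 0.000625 and 0.00264). Gmpr2, a GMP reductase, fell by 0.28 on the log2 scale (adjusted p = 0.0313). Adk, which phosphorylates adenosine, had 515 and 514 in the Pdk3 libraries and 430 and 429 in the Mock libraries (0.26 ± 0.03, adjusted p = 0.00201). Prpsap2, a partner of the phosphoribosyl pyrophosphate synthetases, and the cell-surface nucleotidase Nt5e were higher by 0.17 and 0.15 on the log2 scale, and floored at counting noise neither passed (0.158 and 0.135).

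Among 12 further kinases and transporters 1 rose and 0 fell. Ak4, a mitochondrial adenylate kinase, had 50 and 55 in the Pdk3 libraries and 28 and 30 in the Mock libraries, a 1.81-fold rise (log2 fold change 0.83 ± 0.16, limma adjusted p = 0.00938). Of 5 further pentose phosphate genes 0 passed. H6pd, which runs the oxidative steps in the endoplasmic reticulum, had 253 and 298 in the Pdk3 libraries and 339 and 292 in the Mock libraries, overlapping between the groups (-0.20 ± 0.09, adjusted p = 0.178). Pgm2, a mutase of ribose phosphates, had 184 and 185 in the Pdk3 libraries and 186 and 163 in the Mock libraries, overlapping as well (0.08 ± 0.08, adjusted p = 0.497).

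Set beside 29 genes of the DNA replication machinery, of which 28 rose with a median log2 fold change of 0.89, the 8 deoxynucleotide enzymes had a median of 0.40 and a highest value of 0.83. The other 27 enzymes had a median of 0.13, with 9 higher and 2 lower. No test of these lists against each other was made, since the members were chosen with results known.

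**Figure D4:**
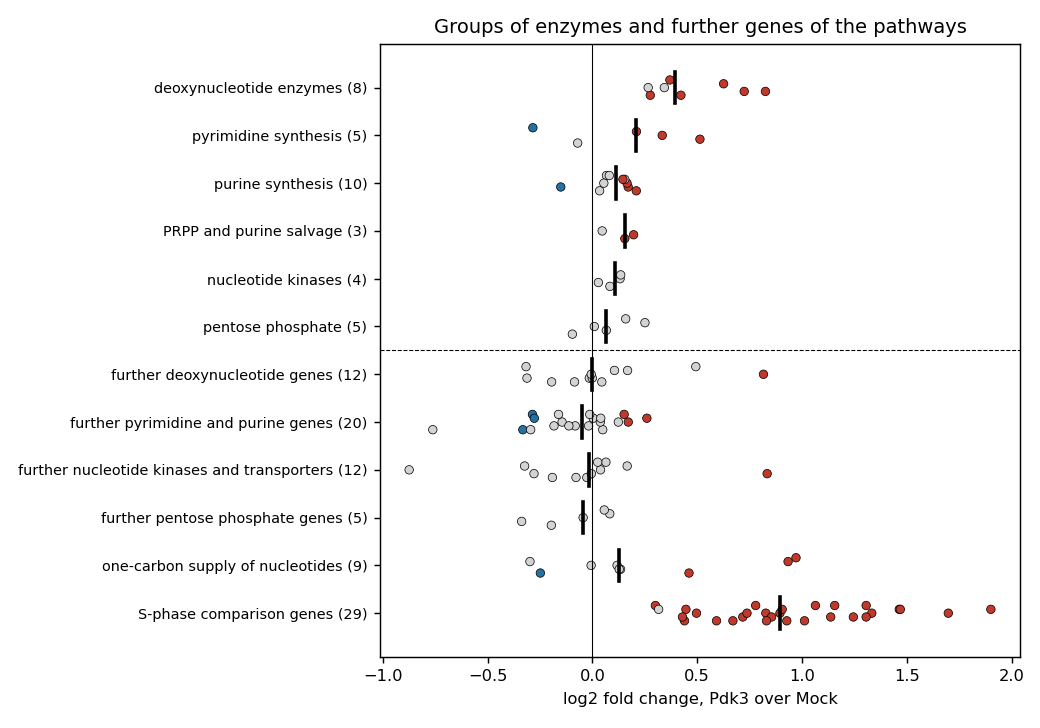
Log2 fold change of Pdk3 over Mock (x axis) of each tested gene in the 6 groups of enzymes (above the dashed line) and in 6 further lists (below it), with the number of tested genes; red and blue points passed as higher and lower, grey points did not, and black bars are medians. In the 6 groups of enzymes the medians run from 0.40 (deoxynucleotide) to 0.07 (pentose phosphate), 4 of the further lists have medians just below 0, and the DNA replication genes (S-phase comparison genes) have a median of 0.89.

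Normalised counts summed to 4476649 and 4470251 in the Pdk3 libraries and 4448199 and 4454567 in the Mock libraries. Pdk3 had 1218 and 1177 in the Pdk3 libraries and 396 and 411 in the Mock libraries, with vector and cell reads not separated. Cardiomyocyte markers were high in every library, with 5 of 8 higher and 1 lower and sums of 21715 and 21381 in the Pdk3 libraries against 20978 and 20751 in the Mock libraries. Macrophage markers were lower in 4 of 7, with sums of 1134 and 1080 in the Pdk3 libraries against 1358 and 1308 in the Mock libraries. Endothelial markers were lower in 2 of 7 (sums of 999 and 972 against 1036 and 1108), and 6 of the 7 had log2 fold changes below 0. The 1 above 0 was Kdr, which had the highest counts of the 7. Kdr had 536 and 527 in the Pdk3 libraries against 467 and 502 in the Mock libraries and did not pass (limma adjusted p = 0.0611). Fibroblast markers were lower in 1 of 7 (5416 and 5265 against 5484 and 5416), which at 14.3% is near the share of all genes tested. That share was 11.3% for lower and 11.7% for higher. Of 4 erythroid rows tested (41 and 39 against 83 and 83) 2 were lower, both of 1 haemoglobin symbol. They had 6 and 7 and 6 and 8 in the Pdk3 libraries against 24 and 19 and 19 and 20 in the Mock libraries. These rows met the minimum value of 10 only through the Mock libraries, so the filter favoured lower Pdk3 values. Of smooth muscle markers 3 of 8 were higher and 1 lower, with sums of 6121 and 6052 in the Pdk3 libraries against 5905 and 5873 in the Mock libraries. None of the markers tested was at 0 in any library. In such bulk samples fewer cells of a type and less RNA per cell cannot be told apart, and the part of these shifts in the changes of the enzymes was not tested.

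The calls of the enzymes depended on the scaling and the spread. Scaled to put the median ribosomal protein gene at the same level in all libraries, 932 genes were higher and 3615 lower over all genes tested, in place of 1496 and 1449, and the median gene was at -0.09. Under it 9 enzymes were higher and 3 lower: Dut, Gart, Pfas, Gmps, Prps1 and Prps2 no longer passed, Cad passed as lower, and Adsl, Atic, Impdh2, Adss, Aprt, Nme1, Nme2, Tkt and Taldo1 turned to values below 0 that did not pass. Without an intensity trend in limma only Rrm1, Rrm2, Tk1, Tyms, Dck and Dhodh passed, and without a filter on low values only Rrm1, Rrm2, Tk1, Tyms, Dck and Prps2. With any 1 of the 4 libraries left out limma called 0 enzymes and 0 genes in all, with 14 to 17 enzymes and 2916 to 3347 genes at an unadjusted p under 0.05.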

How the data were processed

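Per the submitters' processing notes, the reads were handled with FastQC, Trimmomatic 0.39, STAR 2.6.1d, featureCounts 1.6.5 (Subread) and DESeq2 1.26.0 on rat build rn6; for settings, strand and handling of duplicate reads nothing is given in the sources used here. The deposited values are used as a score: they are the authors' normalized gene counts, rounded to integers, and so no longer raw counts. From steps left by the rounding, scaling factors of 0.9246 and 0.9627 (Pdk3) and 1.0256 and 1.0567 (Mock) were estimated, which give about 4139110, 4303511, 4562073 and 4707141 reads in genes. Abundant short transcripts had modest values (Gapdh 333 and 322 in Pdk3 libraries, 312 and 319 in Mock libraries), below those of long genes such as Dst (7468 and 7528 against 8090 and 8169).

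After adding a pseudocount of 1 and taking log2, the test was limma 3.58.1 under R 4.3.3 (intensity trend, group as the single term, two-sided, Benjamini-Hochberg over all genes tested). A gene was tested if 2 or more libraries had a value of 10 or more, which left 12838 genes, among them all 35 enzymes found. Fold changes on this scale understate those of low genes. Intervals are 95% and come from the same fit. A run of the fit on simulated data looked at the recovery of set fold changes and not at the coverage of the intervals. Its replicates differed by counting noise, while those of these data differed by less. Errors cover counting error at best. If reads that are copies of one molecule were removed or kept is not known, since handling of duplicate reads is not given. As the replicates differed by less than counting noise, SEs and intervals can also be narrower than counting error alone would make them. Promoter windows were matched by symbol. The members, lists, motifs, pairs and tests were chosen with earlier results of these data known. The text names all 37 listed symbols, further pathway genes past the threshold (or the 2 of highest mean where none passed) and Pdk3, with Kdr, Gapdh and Dst for context. The alternatives tried were each library left out, a replicate block, 2 other scalings, other minimum values and pseudocounts, no intensity trend, a floor at counting noise and a threshold of 0.01. Some genes of the pathways are not reported here.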

Additional observations from a re-analysis of the deposited data

How the results depend on the processing

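The main counts were 15 enzymes higher and 2 lower, 6 of them deoxynucleotide enzymes and 9 others, with 2945 genes called in all. Without a filter on low values 6 were higher and 0 lower, with 1 higher outside the deoxynucleotide enzymes and 976 genes called; without an intensity trend these numbers were 6, 0, 1 and 851. Floored at counting noise 9 were higher and 1 lower, with 4 outside the deoxynucleotide enzymes. At an adjusted p of 0.01, 8 were higher and 0 lower, with 3 outside and 1342 genes called. Scaled to level the median ribosomal protein gene, 9 were higher and 4 of them outside, 4547 genes were called, and the group medians were 0.31 (deoxynucleotide), 0.12 (pyrimidine), 0.0259 (purine), 0.0677 (ribose and salvage), 0.0207 (kinases) and -0.0209 (pentose phosphate). There Adsl stood at -0.0202, Atic at -0.0528, Impdh2 at -0.0326, Adss at -0.00664, Aprt at -0.0404, Nme1 at -0.00337, Nme2 at -0.0585, Tkt at -0.0209, Taldo1 at -0.0780 and Pgm2 at -0.00393. That scaling lowers all genes nearly alike. TMM scaling gave 17 higher (with Dtymk and Cmpk1) and 1 lower, with 3346 genes called in all. A minimum value of 50 gave 17 and 2, with 3402 of 10689 genes called. Both settings thus called more genes in general. Pseudocounts of 0.5 and 8 left 15 and 2.

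The replicate block gave 14 higher and 1 lower, ending the calls of Prps1 and Impdh1, and 2672 genes called. Deviations of libraries with the same number correlated at -0.007 over 9138 genes, so the numbers are not treated as pairs. With 1 library left out (1 residual degree of freedom, the lone library assumed to vary like the other group), every count fell to 0, the median of the nucleotide kinases lay between 0.0653 and 0.127 and that of the pentose phosphate enzymes between 0.0494 and 0.129, Atic between -0.0242 and 0.0931, Impdh2 between -0.0064 and 0.116, Taldo1 between -0.0527 and 0.0711 and Pgm2 between -0.0116 and 0.178. The causes were not tested. At this depth, genes near 100 counts such as Paics and Rpia have intervals wider than the changes seen in purine synthesis.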
